A study of Mus musculus with 6 samples.

Results

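The p53 target and apoptosis genes followed here are 36 named genes of the p53 pathway and of the machinery of apoptosis. They were chosen by name, with earlier results of these data known. All 36 were found among the 39174 genes of the tables, 35 by symbol and Tigar by gene ID under its older symbol 9630033F20Rik. They were measured by RNA-seq in 6 libraries of primary mouse motoneuron culture, strain CD-1: 3 Nmd+/+ (wild type) and 3 Nmd-/- (homozygous for the neuromuscular degeneration allele of Ighmbp2). Ighmbp2 encodes a helicase, and its loss in people causes SMARD1, spinal muscular atrophy with respiratory distress. No label states that the replicates are separate cultures or animals. The p-values therefore reflect only how far these samples spread. The libraries of a genotype were not repeats of 1 source: Xist, expressed from the inactive X chromosome of female cells, lay between 225 and 273 FPKM in 4 libraries, but was near 0 in Nmd+/+ replicate 2 (0.155 FPKM) and Nmd-/- replicate 3 (0.143 FPKM). The labels give no age and do not say how many animals a culture pooled. Values are FPKM, fragments per kilobase of transcript scaled to the mapped fragments of the library, as deposited by the authors per gene and library, so levels can be compared between genes per length.

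p53, encoded in the mouse by Trp53, is a transcription factor that is kept low by the ubiquitin ligase Mdm2 and its partner Mdm4 and is stabilised by DNA damage and other stress. Its targets stop the cell cycle, repair DNA, adjust metabolism, or bring on apoptosis, and Mdm2 is itself a target, which closes a feedback loop. In the mitochondrial route to apoptosis, BH3-only proteins oppose Bcl2-type survival proteins and free Bax and Bak1 to open the outer membrane, after which Apaf1 activates caspase-9. Death receptors such as Fas start the second route through caspase-8. Programmed cell death removes many neurons from the developing spinal cord, motoneurons among them.

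The culture as sequenced held RNA of several cell types. The motoneuron genes Chat, Mnx1 and Isl2 stood at or near 0, with at most 0.0692, 0.0247 and 0.0364 FPKM. Of the 11 motoneuron markers found, 5 reached a mean of 1 FPKM: Slit2 (197 FPKM), Gfra1 (12.9 FPKM), Nefh (8.30 FPKM), Ret (2.83 FPKM) and Isl1 (1.31 FPKM). All 12 markers of neurons, all 12 of dividing cells and all 8 of radial glia reached that mean, while 2 of 10 microglial and 1 of 8 endothelial markers did (the microglial Tyrobp and C1qb, and Kdr), and the endothelial Tie1 was listed at 0 in every library. Slit2 went against the rest of its list, at means of 169, 233 and 189 FPKM in the replicates numbered 1, 2 and 3. The other 4 motoneuron markers at that mean were lowest in number 2, as was Nefh at 10.4, 5.02 and 9.50 FPKM. The level of Slit2 therefore does not stand for the motoneuron list. Fewer cells of a type and less RNA per cell cannot be told apart in such bulk samples. From the widths of the Cufflinks intervals, each library summed to between 15446400 and 23138200 fragment equivalents. This sum is no count of fragments and no sequencing depth, since the measure did not rise in step with level. Vim, at a mean of 3471 FPKM, had 4869 to 7209 equivalents, and Btg2, at 35.1 FPKM, had 3144 to 5991. Of the 36 members, 35 had over 100 fragment equivalents in every library, and Casp8 had 89.9 in its lowest. These widths hold no spread between replicates. Ighmbp2 itself, the check of the genotype labels, lay between 1.09 and 1.44 FPKM in Nmd+/+ and between 0.598 and 0.876 FPKM in Nmd-/-, lower in 3 of 3 pairs, with groups that did not overlap (log2 difference -0.38, SE 0.14, adjusted p = 0.9997 in limma).

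All 36 members were expressed, with a mean over the 6 libraries between 1.45 FPKM (Xpc) and 151 FPKM (Ccng1), and all 36 passed the filter of a mean of at least 1 FPKM. A mean above 30 FPKM was reached by 13 members, and 15 lay below 10 FPKM. In the order of mean level the leading genes were Ccng1, Ei24 (90.0 FPKM), Cdkn1a (75.2 FPKM), Phlda3 (61.9 FPKM), Trp53 (48.5 FPKM), Bax (45.9 FPKM) and Mcl1 (45.3 FPKM). Of the 35 pairs of neighbours in that order, only Ccng1 and Ei24, and Ddb2 and Tigar, did not overlap in their ranges over the 6 libraries. For the other 33 pairs the order is within the spread between libraries.

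**Figure D1:**
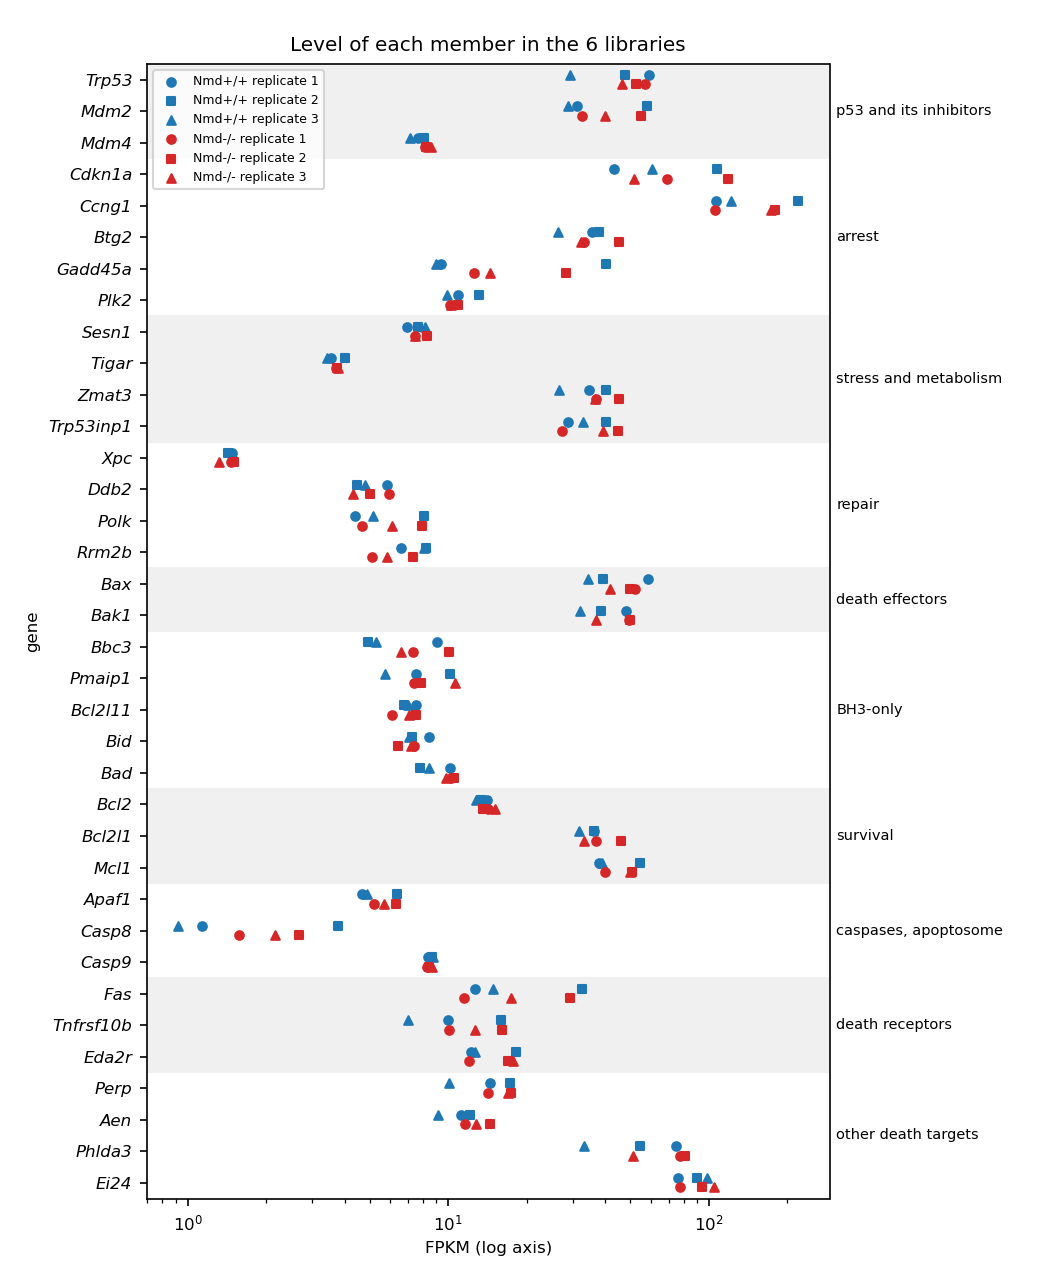
FPKM of the 36 members (rows, grouped by role) on a log axis in each of the 6 libraries, with colour for genotype and shape for replicate number. Levels run from 0.919 FPKM (Casp8) to 221 FPKM (Ccng1), and for many genes the squares of replicate 2 lie to the right in both genotypes.

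Trp53 (chr11:69580359-69591873, GRCm38) was at 58.9, 47.6 and 29.3 FPKM in Nmd+/+ replicates 1, 2 and 3, and 56.7, 52.3 and 46.5 FPKM in the same replicates of Nmd-/-. Mdm2 (chr10:117688888-117710758) measured 31.2, 57.7 and 28.9 FPKM in Nmd+/+ and 32.5, 55.1 and 39.9 FPKM in Nmd-/-. The groups overlapped for both genes, and the lowest value of each was in Nmd+/+ replicate 3. Mdm2 was highest in replicate 2 of both genotypes, where Trp53 was not. The ratio of Mdm2 to Trp53 was lowest in the libraries numbered 1, at 0.530 (Nmd+/+) and 0.574 (Nmd-/-). It lay at 1.21 and 1.05 in those numbered 2. In those numbered 3, where Trp53 was lowest, it lay at 0.986 and 0.858. Mdm4 was far steadier, between 7.13 and 8.58 FPKM, with Nmd-/- above Nmd+/+ in each library.

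Among the arrest targets, Cdkn1a (chr17:29090979-29100722), which encodes the cyclin-dependent kinase inhibitor p21, stood at 43.3, 108 and 60.4 FPKM in Nmd+/+ and 69.2, 119 and 51.8 FPKM in Nmd-/-. Its Cufflinks interval in Nmd+/+ replicate 2 ran from 102.7 to 112.9 FPKM, and in Nmd-/- replicate 1 from 65.7 to 72.6 FPKM. Gadd45a, a stress protein of arrest and repair, was at 9.38, 40.3 and 8.96 FPKM in Nmd+/+ and 12.6, 28.2 and 14.5 FPKM in Nmd-/-. Both genes were highest in replicate 2 of each genotype, and the genotypes overlapped. Of Gadd45a's exonic bases, 19.1% are shared on the opposite strand with E230016M11Rik (mean 2.68 FPKM), whose reads may not have been told apart. Ccng1, the cyclin G1 gene and the highest member, ran from 106 to 221 FPKM and again peaked in the replicates numbered 2. The antiproliferative gene Btg2 lay between 26.4 and 45.4 FPKM, and the polo-like kinase gene Plk2 between 9.90 and 13.1 FPKM.

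The stress and metabolism targets covered a wide range of levels. Zmat3, a zinc finger RNA-binding protein gene, lay between 26.7 and 45.2 FPKM, and Trp53inp1, which encodes a stress-induced partner of p53, between 27.3 and 45.0 FPKM. The sestrin gene Sesn1, a brake on mTORC1 signalling, lay between 6.95 and 8.31 FPKM. Tigar, whose product lowers the flux through glycolysis, stayed between 3.44 and 4.01 FPKM.

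The repair genes were all low, with means from 1.45 to 6.87 FPKM. Xpc and Ddb2, which recognise DNA lesions for nucleotide excision repair, lay between 1.32 and 1.51 FPKM and between 4.30 and 5.94 FPKM. Of Ddb2's exonic bases 23.8% are shared on the opposite strand with Acp2 (mean 26.9 FPKM). Polk, a translesion polymerase gene, measured 4.39, 8.08 and 5.13 FPKM in Nmd+/+ and 4.65, 7.90 and 6.10 FPKM in Nmd-/-, highest in both replicates numbered 2. Rrm2b, the p53-inducible ribonucleotide reductase subunit, stood at 6.60, 8.24 and 8.10 FPKM in Nmd+/+ and 5.12, 7.31 and 5.84 FPKM in Nmd-/-. Rrm2b was lower in Nmd-/- in each of the 3 replicate pairs, though the groups overlapped.

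Of the death genes, the pore-forming effectors and the survival genes lay above the BH3-only genes in every library, Bcl2 by the least. Bax lay between 34.3 and 58.3 FPKM and Bak1 between 32.1 and 49.7 FPKM. Bcl2l1 (Bcl-xL) lay between 31.8 and 46.0 FPKM and Mcl1 between 38.0 and 54.6 FPKM, each above Bcl2, which lay between 12.8 and 15.1 FPKM. Mcl1 exceeded Bcl2 by 2.71-fold to 4.10-fold within a library. The 5 BH3-only genes Bbc3 (Puma), Pmaip1 (Noxa), Bcl2l11 (Bim), Bid and Bad lay between 4.92 FPKM (Bbc3 in Nmd+/+ replicate 2) and 10.6 FPKM (Pmaip1 in Nmd-/- replicate 3). Exonic bases are shared on the opposite strand by Bad with Gpr137 (20.5%), by Bak1 with Ggnbp1 (18.2%) and by Bid with Bcl2l13 (17.7%).

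The summed level of Bcl2, Bcl2l1 and Mcl1 over that of Bax and Bak1 was 0.831, 1.34 and 1.26 in Nmd+/+ replicates 1, 2 and 3, and 0.898, 1.11 and 1.25 in those of Nmd-/-. The effectors thus exceeded the survival genes in both libraries numbered 1 and in no other, whatever the genotype.

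Among the caspase genes, Casp9 was the steadiest member, between 8.32 and 8.77 FPKM, with a highest library 1.05-fold above the lowest. Casp8, the initiator of the receptor route, varied 4.09-fold between libraries, at 1.14, 3.76 and 0.919 FPKM in Nmd+/+ and 1.57, 2.67 and 2.16 FPKM in Nmd-/-. Apaf1, the scaffold of the apoptosome, lay between 4.66 and 6.35 FPKM. The receptor gene Fas was at 12.6, 32.7 and 14.8 FPKM in Nmd+/+ and 11.5, 29.3 and 17.4 FPKM in Nmd-/-. Fas and Casp8 were each highest in both replicates numbered 2. Tnfrsf10b, a receptor for the ligand TRAIL, lay between 6.99 and 16.1 FPKM, and Eda2r, the X-linked receptor for ectodysplasin A2, reached 18.2 FPKM in Nmd+/+ replicate 2.

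Of the remaining death targets, Phlda3, which encodes a repressor of Akt signalling, measured 74.5, 54.3 and 33.3 FPKM in Nmd+/+ and 77.2, 80.9 and 51.2 FPKM in Nmd-/-. It was lowest in replicate 3 of each genotype, and the genotypes overlapped. Ei24, an endoplasmic reticulum protein gene, lay between 76.0 and 105 FPKM, Perp, a tetraspan membrane protein gene, between 10.1 and 17.5 FPKM, and the nuclease gene Aen between 9.16 and 14.5 FPKM.

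p53 binds DNA as a tetramer at pairs of a 10-base consensus, here called the p53 half-site: a run of purines, C, a pair of A or T, G, and a run of pyrimidines. It reads alike on both strands, so a search of one strand covers both. It was searched in windows of 250 bases before to 50 after annotated starts, from RefSeq (GRCm38.p6), which held 28 of the 36 members in 39 windows; Zmat3, Trp53inp1, Xpc, Ddb2, Rrm2b, Pmaip1, Tnfrsf10b and Perp had no entry. The half-site occurred in the windows of 10 of these 28 members, or 35.7%, against 9.55% of all 27025 genes with a window. No test was run on this share, since the members were chosen in part as p53 targets. A pair of half-sites within 13 bases of each other occurred in 0.074% of all genes and in Cdkn1a alone among the members. It lies before the start used by the deposited gene model, and the 250 bases are shown because Cdkn1a is a p53 target that differed between replicate numbers in the test given further on, with both half-sites in capitals, 12 bases apart:
Cdkn1a, chr17:29090729-29090978, plus strand: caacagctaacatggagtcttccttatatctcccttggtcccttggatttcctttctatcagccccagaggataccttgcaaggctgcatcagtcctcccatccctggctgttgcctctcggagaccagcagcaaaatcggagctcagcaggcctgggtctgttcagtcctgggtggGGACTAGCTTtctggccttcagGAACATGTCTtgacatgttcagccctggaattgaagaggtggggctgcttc
The first half-site begins 73 bases and the second 51 bases before the start. The search allowed no mismatch. The bases directly after the second half-site, tgacatgttc, miss the pattern only at their first base, a T, and were therefore not marked. Which of these stretches p53 would pair was not tested. The windows of 5 other members that passed that test each held 1 half-site, and those of 3 that lie before the start of the deposited gene model are shown, with the half-site in capitals:
Mdm2, chr10:117710905-117710974, minus strand: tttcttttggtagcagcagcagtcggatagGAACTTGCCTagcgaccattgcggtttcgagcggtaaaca
Ccng1, chr11:40755432-40755501, minus strand: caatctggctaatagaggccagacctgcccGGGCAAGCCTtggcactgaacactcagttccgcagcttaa
Trp53, chr11:69580254-69580323, plus strand: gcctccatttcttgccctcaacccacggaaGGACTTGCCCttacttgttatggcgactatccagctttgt
These matches begin 186 bases (Mdm2), 185 bases (Ccng1) and 75 bases (Trp53) before the RefSeq start. Those of Polk and Gadd45a, 231 and 40 bases before theirs, lie inside the deposited gene models. Matches in Bax, Aen, Ei24 and Sesn1 complete the 10. A match is a description of the letters and no evidence of binding.

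**Figure D2:**
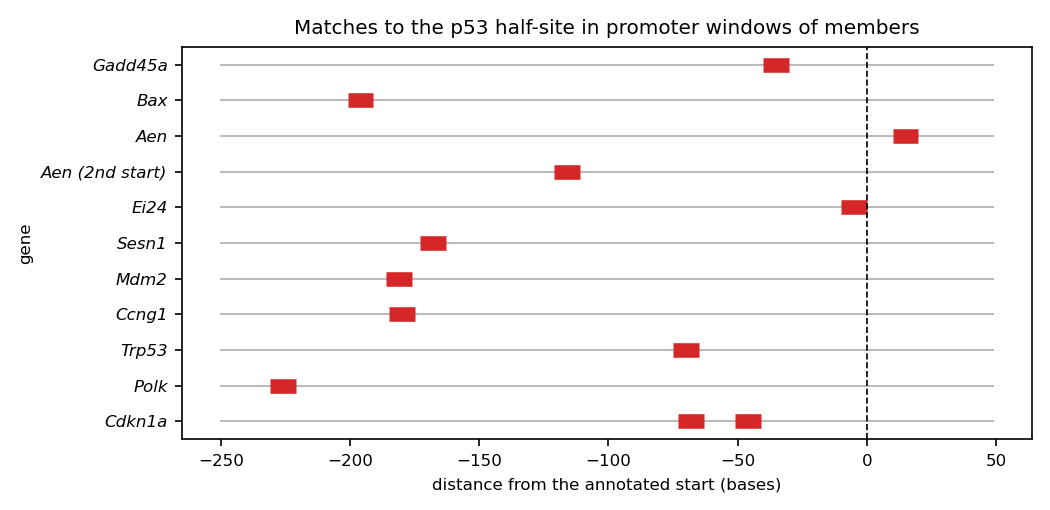
Position of each match to the p53 half-site (red) in the promoter windows (grey lines, 250 bases before to 50 after an annotated start at 0) of the 10 members with a match; Aen has the same match in the windows of 2 starts. Cdkn1a has 2 matches before its start, and each other window has 1.

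The comparison of genotypes asked whether these genes changed with the Nmd-/- genotype. Ighmbp2 RNA was lowered there, to 0.590 of its Nmd+/+ mean, and not absent. No member passed the test: 0 of 36 had an adjusted p under 0.05 in limma, as did 0% of the 14611 genes tested. At an unadjusted p under 0.05 the counts were 0 of 36 members and 0.445% of all genes. With the replicate number as a block, 0 of 36 passed the adjusted threshold again, and 2 members, Phlda3 and Rrm2b, had an unadjusted p under 0.05 (4.87% of all genes). Phlda3 had the largest difference, at 54.0 ± 20.6 FPKM in Nmd+/+ and 69.8 ± 16.2 FPKM in Nmd-/- (SD, n = 3 each), a log2 difference of 0.41 (SE 0.31, adjusted p = 0.9997 in limma, 0.944 with the block). It was higher in 3 of 3 pairs. Rrm2b had the largest difference toward lower values, at 7.65 ± 0.91 and 6.09 ± 1.12 FPKM (SD, n = 3 each), or -0.29 on the log2 scale (SE 0.16, adjusted p = 0.9997 in limma, 0.990 with the block).

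Trp53 and Mdm2, and the targets named next, differed between genotypes by less than the SD of the Nmd+/+ replicates. Trp53 stood at 45.2 ± 14.9 FPKM in Nmd+/+ and 51.8 ± 5.1 FPKM in Nmd-/- (SD, n = 3 each), a log2 difference of 0.24 (95% interval -0.34 to 0.82). Cdkn1a was at 70.5 ± 33.4 and 79.9 ± 34.7 FPKM (SD, n = 3 each), a difference of 0.19 (95% interval -0.73 to 1.11), and Mdm2 39.3 ± 16.0 and 42.5 ± 11.5 FPKM, a difference of 0.15 (-0.55 to 0.85). For the puma gene Bbc3 the difference was 0.30 (-0.26 to 0.87) and for Bax 0.15 (-0.34 to 0.65). For 31 of the 36 members the 95% interval lay within 1 of no difference on the log2(FPKM + 1) scale, and for 12 within 0.5. The intervals that reached beyond 1 were those of Gadd45a, Cdkn1a, Phlda3, Casp8 and Fas. Casp9 and Mdm4 had the narrowest, -0.28 to 0.25 and -0.16 to 0.39. All these intervals come from the fit without the replicate number, so they hold the variation between numbers. With the number as a block the SE fell for 36 of 36 members, for Trp53 from 0.25 to 0.14 and for Phlda3 from 0.31 to 0.13. The median SE fell from 0.188 to 0.115 for members and from 0.171 to 0.115 for all genes, so the fall is general.

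**Figure D3:**
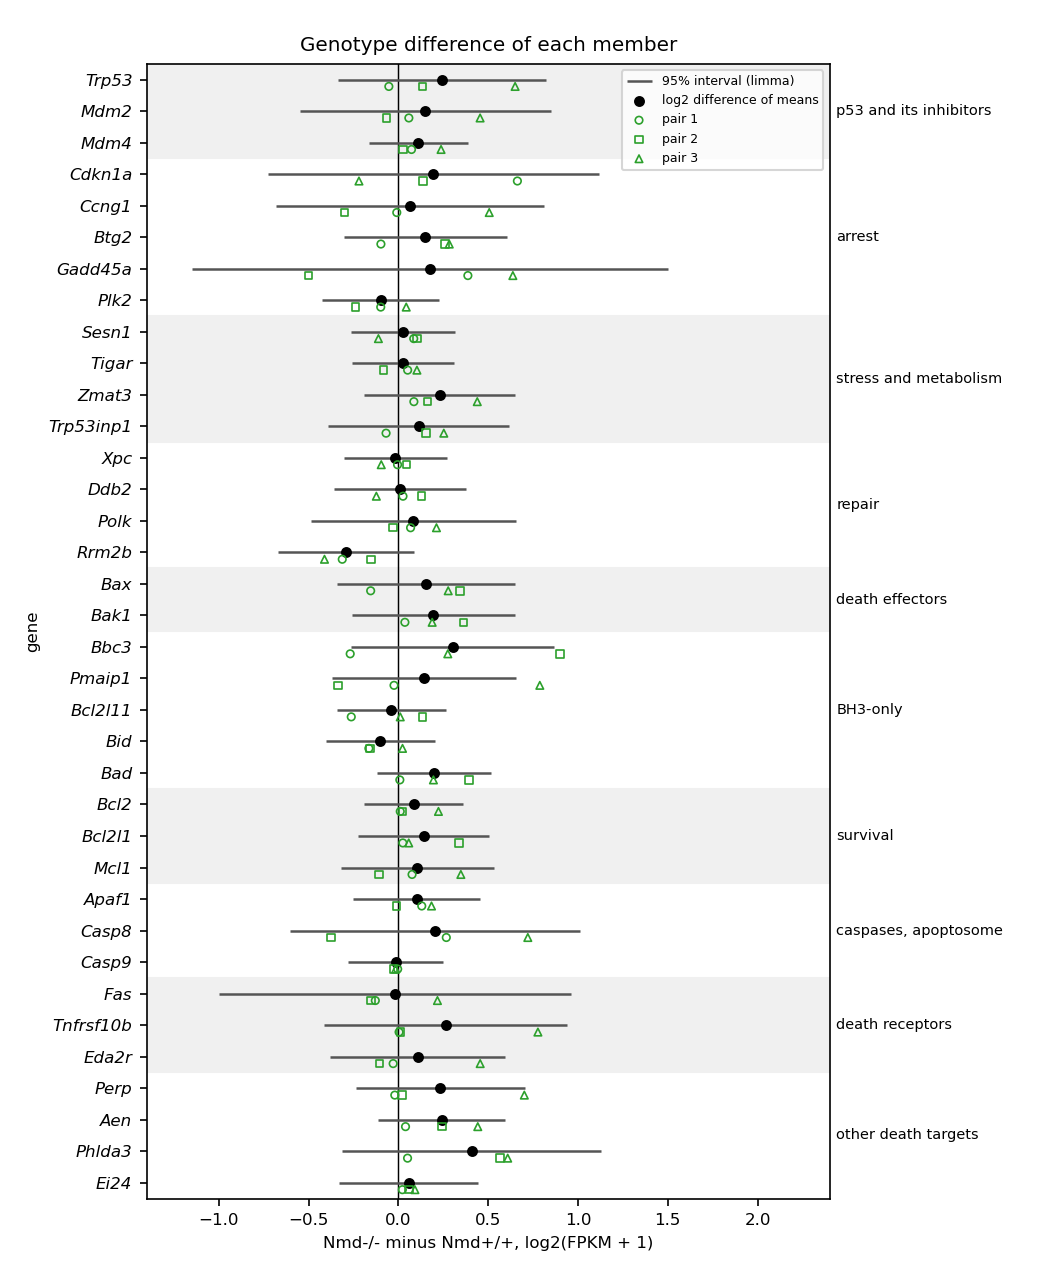
Log2 difference between Nmd-/- and Nmd+/+ on the log2(FPKM + 1) scale for each member (black points) with its 95% interval from limma (bars), and the differences within replicate pairs 1, 2 and 3 (open symbols). Every interval includes 0, and many triangles of pair 3 lie to the right.

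By their means of log2(FPKM + 1), 29 of 36 members were higher in Nmd-/-, against 56% of all genes tested, with a median log2 difference of 0.11 against 0.02. By means of FPKM the count was 28, without Gadd45a. The role groups with every member higher were p53 and its inhibitors (3 of 3), stress and metabolism (4 of 4), effectors (2 of 2), survival genes (3 of 3) and the other death targets (4 of 4), while the repair genes split 2 to 2. These counts hold genes that promote death and genes that prevent it, and none of them passed the test. The difference lay mainly in pair 3, where 30 of 36 were higher with a median of 0.23 (all genes 0.04). In pairs 1 and 2, 20 and 21 of 36 were higher, with medians of 0.01 and 0.02 (all genes -0.0014 and 0.016). Over all 14611 genes, 7212, 7696 and 8407 were higher in pairs 1, 2 and 3. In pair 3 the summed level of the 12 dividing cell markers was 506 FPKM in Nmd+/+ and 768 FPKM in Nmd-/-, against 583 and 623 FPKM in pair 1 and 773 and 701 FPKM in pair 2. Over all 3 pairs, 12 of 12 dividing cell markers were higher and 12 of 12 neuron markers lower in Nmd-/- by their means, none past the adjusted threshold. Xist was high in the Nmd+/+ library of pair 3 and near 0 in the Nmd-/- one, and the reverse in pair 2. The part of these markers in the result was not tested. With the Xist level as a covariate the count was 29 of 36. Without Nmd+/+ replicate 3 it fell to 19 of 36, and without Nmd-/- replicate 2 to 21. The Nmd-/- library was higher in 3 of 3 pairs for 10 of 36 members (27.8%, against 14.9% of all genes) and lower in 3 of 3 for 2, Rrm2b and Casp9 (5.56%, against 10.6% of all genes). The groups did not overlap for 1 member, Mdm4, at 7.61 ± 0.46 and 8.30 ± 0.25 FPKM (SD, n = 3 each). Groups did not overlap for 2.67% of all genes, 1.76% with Nmd-/- higher.

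Differences between replicate numbers passed the test where differences between genotypes did not. Both genotypes carry the numbers 1 to 3, though no label says what the number marks. Libraries of the same number deviated together across genes, least so for number 3. An F test in limma of the 3 numbers, with genotype in the model and 2 libraries per number, called 12 of 36 members, or 33.3%, close to the 28.6% of all genes tested. Read against that background, the share called is not a result about the members. Members called with number 2 highest were 9 of 36 (25%, against 11.6% of all genes), with number 1 highest 3 of 36 (8.33%, against 13.9%) and with number 3 highest 0 of 36 (against 3.05%). Those called with number 1 lowest were 8 of 36 (22.2%, against 8.41% of all genes), with number 3 lowest 4 of 36 (11.1%, against 7.25%) and with number 2 lowest 0 of 36 (against 12.9%). These shares were not tested against each other.

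The 9 members highest in number 2 were Fas, Gadd45a, Cdkn1a, Mdm2, Polk, Ccng1, Trp53inp1, Casp8 and Tnfrsf10b. Their means per number show the size. Gadd45a measured 34.2 FPKM in number 2, 3.12-fold above number 1 and 2.92-fold above number 3 (adjusted p = 0.00250). Fas was 2.57-fold and 1.93-fold higher (adjusted p = 0.00101), and Cdkn1a 2.01-fold and 2.02-fold higher (adjusted p = 0.00538). Mdm2, the feedback inhibitor, was 1.77-fold and 1.64-fold higher (adjusted p = 0.00733), beside a Trp53 level in number 2 that was between those of the other numbers. Casp8 was 2.38-fold and 2.09-fold higher (adjusted p = 0.0310). By role, 3 of 5 arrest targets (Cdkn1a, Ccng1, Gadd45a) and 2 of 3 death receptors (Fas, Tnfrsf10b) passed with number 2 highest. So did 1 of 3 among p53 and its inhibitors (Mdm2) and 1 of 4 stress and metabolism targets (Trp53inp1). Further, 1 of 4 repair genes (Polk) and 1 of 3 caspase and apoptosome genes (Casp8) did. The count was 0 of 5 BH3-only genes, 0 of 3 survival genes, 0 of 2 effectors and 0 of 4 other death targets. Over all genes the share was 11.6%, and differences between roles were not tested. For 15 of 36 members both libraries numbered 2 lay above the other 4 (41.7%, against 20.6% of all genes), including all 5 arrest targets and the survival gene Mcl1.

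The remaining 3 called members, Phlda3, Trp53 and Bak1, were highest in number 1 and lowest in number 3. Phlda3 averaged 75.9 FPKM in number 1 and 42.2 FPKM in number 3 (adjusted p = 0.00801). Trp53 was 1.52-fold and Bak1 1.41-fold higher in number 1 than in number 3 (adjusted p = 0.0409 and 0.0429). Bax had the same order of means, 55.3, 44.6 and 38.0 FPKM in numbers 1, 2 and 3, and did not pass (adjusted p = 0.0520). Both libraries numbered 3 lay below the other 4 for 5 of 36 members (13.9%, against 10.8% of all genes).

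**Figure D4:**
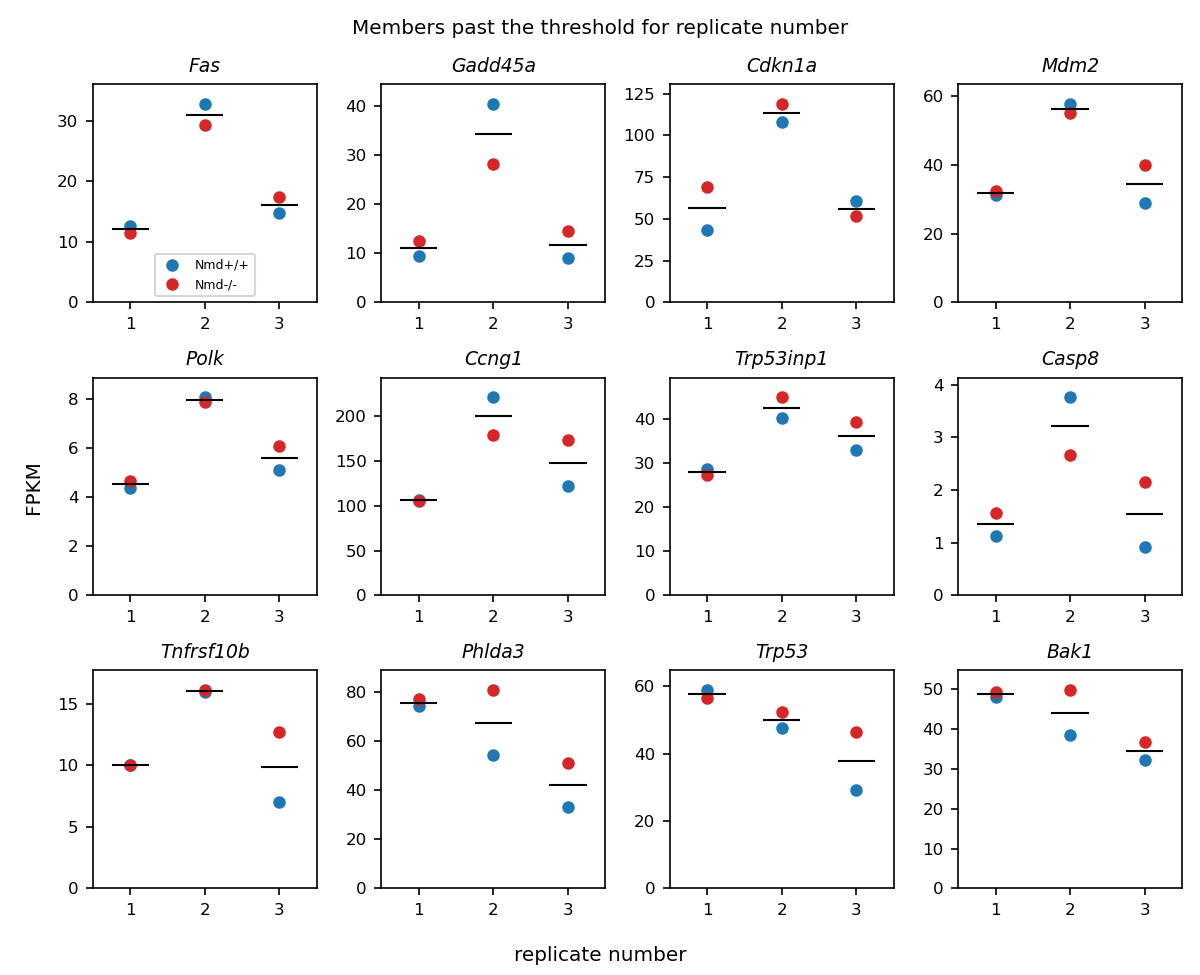
FPKM of the 12 members past the threshold of the F test between replicate numbers, by number, with 1 point per library (blue Nmd+/+, red Nmd-/-) and a bar for the mean of the 2. The first 9 panels peak at number 2, and Phlda3, Trp53 and Bak1 fall to their lowest at number 3.

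Fibroblast and neuron markers moved with the replicate number. The summed level of 10 fibroblast markers was 165 and 201 FPKM in the libraries numbered 2 (Nmd+/+ and Nmd-/-) and between 11.4 and 20.7 FPKM in the other 4, and 10 of 10 passed the same test with number 2 highest. The 12 neuron markers were lowest there, at 826 and 866 FPKM against 1239 to 1672 FPKM, and 12 of 12 passed with number 2 lowest. The 12 dividing cell markers, of which 0 passed, lay at 773 and 701 FPKM against 506 to 768 FPKM, with overlap. The 10 microglial ones summed to 5.66 and 10.4 FPKM against 3.28 to 4.57 FPKM. Of these, 2 reached a mean of 1 FPKM and 0 passed. Of the 8 radial glia markers 3 passed, all with number 2 lowest. The part of all these markers in the levels of the p53 targets was not tested. With both libraries numbered 2 left out, 8 of 36 members passed between numbers 1 and 3, 6 of them among the 12, in a fit with 1 residual degree of freedom. Cdkn1a, Gadd45a, Mdm2, Casp8, Tnfrsf10b and Polk no longer passed (adjusted p = 0.920, 0.722, 0.623, 0.775, 0.765 and 0.149), while Phlda3 (0.00161), Bak1 (0.00910), Trp53 (0.0128), Ccng1 (0.0308), Fas (0.0416) and Trp53inp1 (0.0494) did, with Bax (0.0118) and Ei24 (0.0203).

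Leaving out each library in turn, 7 of the 12 passed every time: Fas, Gadd45a, Cdkn1a, Mdm2, Polk, Ccng1 and Phlda3. Tnfrsf10b (adjusted p = 0.160) and Casp8 (0.278) did not pass without Nmd+/+ replicate 2. Trp53 did not pass without Nmd+/+ replicate 1 or Nmd+/+ replicate 3 (up to 0.304), Trp53inp1 not without replicate 1 of either genotype (up to 0.367), and Bak1 not without replicate 1 or 3 of either genotype (up to 0.388). With median-of-ratios scaling Trp53 (0.0572) and Bak1 (0.0687) did not pass and Ei24 (0.0383) did. With no filter on low values 0 of 36 members and 0 of 27711 genes passed (limma, smallest adjusted p 0.0763, with 6348 genes at an unadjusted p under 0.05).

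**Figure D5:**
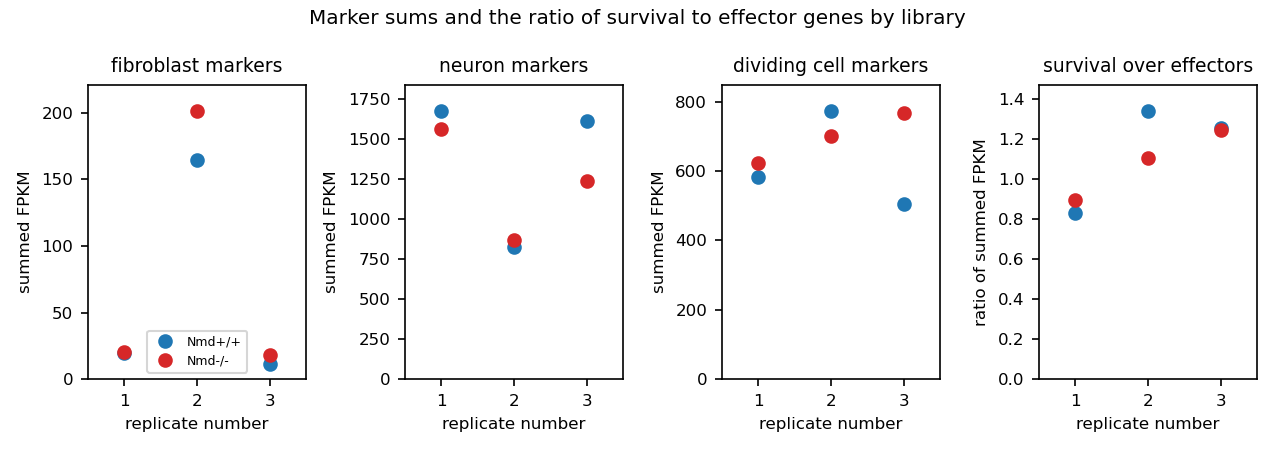
Summed FPKM of the fibroblast, neuron and dividing cell markers, and the ratio of survival genes (Bcl2, Bcl2l1, Mcl1) to effectors (Bax, Bak1), by replicate number with 1 point per library (blue Nmd+/+, red Nmd-/-). Fibroblast markers stand out in number 2 of both genotypes, and the ratio is below 1 only in number 1.

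Of a further 56 genes of the pathway, 55 were found in the files (Cop1 under its older symbol Rfwd2) and 49 passed the filter. Between genotypes 0 of 49 passed in limma, 32 were higher in Nmd-/- by means of log2(FPKM + 1), and the median log2 difference was 0.03. The smallest p belonged to Gtse1 and Dcxr in the arrest and repair list, Chek2 and Ep300 upstream of p53, and Dffb and Siva1 in the death list. Chek2, the DNA damage checkpoint kinase, stood at 3.82, 4.74 and 3.15 FPKM in Nmd+/+ and 5.29, 5.59 and 4.45 FPKM in Nmd-/-, higher in 3 of 3 pairs with groups that overlapped (adjusted p = 0.9997). Between replicate numbers 8 of 49 passed, 16.3%, below the 28.6% of all genes.

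Of these 49 genes 5 passed with number 2 highest, 10.2%, near the 11.6% of all genes, which is not a result about the list. The stress cytokine gene Gdf15 was at 3.14 FPKM there against 1.40 and 1.08 FPKM in numbers 1 and 3 (adjusted p = 0.00525), the sestrin gene Sesn2 18.3 against 14.3 and 11.7 FPKM (0.0275), Pml, which encodes the scaffold of nuclear bodies, 10.4 against 6.29 and 6.03 FPKM (0.0119), and the TNF receptor gene Tnfrsf1a 24.3 against 18.8 and 11.0 FPKM (0.00262). Trp53bp1, a DNA break repair factor, went the other way, at 30.9 FPKM against 49.7 and 40.3 FPKM (0.0111). Cradd, an adaptor of caspase-2, was highest in number 1, at 4.78 against 2.98 and 2.68 FPKM (0.0199). Trp63 and Trp73, the relatives of Trp53, stayed below 1 FPKM, with at most 0.264 and 0.572 FPKM.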

How the data were processed

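The authors deposited 1 table of FPKM per library, made with Cufflinks per the file headers, with the bounds of an interval and a status for each gene. Cufflinks 2.2.1, SAMtools 1.3, cutadapt 1.8, Trim Galore 0.4.0, FastQC 0.10.1 and the build GRCm38 are listed in the submitters' processing notes. The aligner's version, the annotation release and the use of strand were not given in the sources used here. FPKM are relative to each library's total and carry no counts, so no count test was run. Adding 1 to the files' start gave the GENCODE M21 start for 77.8% of 37560 genes, and coordinates are printed from 1.

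Tests used limma 3.58.1 in R 4.3.3 with an intensity trend on log2(FPKM + 1), which understates changes of low genes, over the 14611 genes with a mean of at least 1 FPKM and an accepted status, with two-sided tests and Benjamini-Hochberg adjustment over all of them at 0.05. Genotype was fitted as the only term, and the replicate number by an F test with genotype as a covariate. Deviations of same-numbered libraries from their genotype means correlated at 0.82, 0.70 and 0.39 for numbers 1, 2 and 3. Those of unlike numbers correlated between -0.812 and 0.28. The highest of these was Nmd+/+ replicate 3 with Nmd-/- replicate 1, so the pairing of number 3 is weak. The pairing comes from these values and from no label, and a replicate block was an alternative. Named genes were all members, Ighmbp2, and per list of other pathway genes the 2 with the smallest p in each comparison; markers are named by highest level or by absence, and those at 1 FPKM were chosen after their values were seen. Members and lists were chosen with earlier results of these data known. Alternatives were another pseudocount (0.1), other filters, median-of-ratios scaling, the Xist level as covariate, and libraries left out. The procedure was also run on simulated data with independent noise, sized after genotype and replicate number had been fitted. That run cannot show how the genotype fit without a block behaves under variation between numbers. Fragment equivalents are the squared ratio of a value to its interval-derived SD.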

Additional observations from a re-analysis of the deposited data

How the results depend on the processing

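Between genotypes 0 genes and 0 members passed under every alternative run, with 1 exception for all genes. With the replicate block 0 genes and 0 members passed, so that it changed no member's call, and with the block and both libraries numbered 2 left out 20 genes and 0 members did; that fit has 1 residual degree of freedom. The direction of a member's genotype difference was mostly unsettled, since 19 of the 36 turned in at least 1 of the 6 fits that leave out a library. Their log2 ranges were Bax (-0.0020 to 0.37), Bcl2l11 (-0.097 to 0.035), Btg2 (-0.0050 to 0.25), Casp8 (-0.040 to 0.62), Ccng1 (-0.14 to 0.38), Cdkn1a (-0.13 to 0.55), Ddb2 (-0.090 to 0.10), Ei24 (-0.045 to 0.18), Fas (-0.36 to 0.38), Gadd45a (-0.18 to 0.85), Mdm2 (-0.051 to 0.46), Plk2 (-0.18 to 0.0043), Pmaip1 (-0.037 to 0.33), Polk (-0.080 to 0.30), Sesn1 (-0.028 to 0.071), Tigar (-0.011 to 0.075), Trp53 (-0.034 to 0.46), Trp53inp1 (-0.035 to 0.31), Xpc (-0.041 to 0.015). The other 17 kept their direction, 14 of them higher in Nmd-/-. Leaving out both libraries numbered 2, with the block or without it, turned Sesn1 (-0.013), Ddb2 (-0.049) and Fas (0.044), and median-of-ratios scaling turned Ddb2 (-0.0097). Between replicate numbers 4173 genes and 12 members passed in the fit as reported, and 0 genes and 0 members with no filter on low values, where the cause was not tested. Leaving out a library gave between 2281 and 6466 genes and between 9 and 18 members, in fits with 1 residual degree of freedom where the lone library of a number is assumed to vary like the others. With median-of-ratios scaling 11 members passed, with Trp53 (adjusted p = 0.0572) and Bak1 (0.0687) lost and Ei24 (0.0383) gained. Fragment equivalents were lowest for Casp8, with 89.9 in its lowest library.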
